A study of Mus musculus with 2 samples.

Results

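The miR-193 and miR-365 genes are 4 hairpin genes that form a pair of paralogous clusters in the mouse, Mir193b with Mir365-1 on chromosome 16 and Mir193a with Mir365-2 on chromosome 11. They were taken by name and position and not by a rule on their counts, though with earlier results of these data known. They are 4 of the 2202 miRNA genes in the count tables. The data came from microRNA sequencing of adrenal glands of 2-month-old female mice of the hybrid strain B6CASTF1/J. The labels give a single group with 2 replicates and name no treatment or genetic change, so genes were compared within a library and the 2 libraries with each other. The tissue labels number the females differently while the donor label is shared, so the spread between replicates is that between these samples and may be partly technical.

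A miRNA gene is transcribed into a hairpin, from which Drosha and Dicer cut a 5p and a 3p arm, and the arm that is loaded into Argonaute pairs with target mRNAs through its seed. The cluster of Mir193b and Mir365-1 is known from mouse brown fat. Its miRNAs are enriched there, and their inhibition in cultured precursor cells was reported to impair brown adipocyte formation, with Runx1t1 as a target of miR-193b. A mouse line without the cluster was later reported to form brown fat. Brown adipocytes also occur in the fat around the mouse kidney and adrenal gland. Reads from whole glands do not say which cells made them, and fewer cells of a type cannot be told apart from less RNA per cell.

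Gene counts on the strand of the gene totalled 2280028 in replicate 2 and 2839732 in replicate 1, so that 1 count was worth 0.439 CPM in replicate 2, against 0.352 CPM in replicate 1, where CPM is the count scaled to a library total of 1000000. A further 25.3% of the reads of replicate 2 and 28.8% of those of replicate 1 aligned to several places and were given to no gene. In replicate 2, marker lists summed to 6.58 CPM for skeletal and heart muscle and 14488 CPM for erythroid cells, against 953 CPM for muscle and 643 CPM for erythroid cells in replicate 1. These differences go with the replicate number in every comparison of the libraries given here, and their part in those comparisons was not tested.

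The mature arms, credited to RefSeq on GRCm38.p6 (mm10), are shown because they set which members can act on the same targets and which reads can be told apart. Capitals mark the seed, bases 2 to 8 from the 5′ end. All 4 members were matched by symbol.

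miR-193b-3p: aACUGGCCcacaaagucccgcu

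miR-193a-3p: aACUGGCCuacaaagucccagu

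miR-193b-5p: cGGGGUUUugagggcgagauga

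miR-193a-5p: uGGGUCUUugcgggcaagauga

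miR-365-3p, from Mir365-1 and Mir365-2: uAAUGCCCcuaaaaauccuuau

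miR-365-1-5p: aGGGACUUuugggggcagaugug

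miR-365-2-5p: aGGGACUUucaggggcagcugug

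The 3p arms of the miR-193 genes share their seed, and no other mature miRNA of the RefSeq table has it. Counted from 1 at the 5′ end, they differ by U9C, A20G and G21C, with the miR-193a-3p base given before the position. The 5p arms of the miR-193 genes differ at 5 of 22 bases, U5G and C6U of them inside the seed, so their seeds are not the same. The miR-365-3p arm is identical in both miR-365 genes, and its seed occurs in no other mature miRNA of the table. The 5p arms of the miR-365 genes share a seed with each other alone and differ at 3 of 23 bases (U10C, G11A and A19C, with the miR-365-1-5p base before the position).

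The hairpins show where reads of the paralogs can be separated. In the miR-193 hairpins capitals mark the mature arms. In the miR-365 hairpins they mark the longest stretch shared between them, 27 bases that hold the whole of miR-365-3p.

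Mir193b (ENSMUSG00000076972.2, chr16:13449523-13449601, plus strand): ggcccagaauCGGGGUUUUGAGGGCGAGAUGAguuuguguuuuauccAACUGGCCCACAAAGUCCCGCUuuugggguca

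Mir193a (ENSMUSG00000065395.1, chr11:79711969-79712034, plus strand): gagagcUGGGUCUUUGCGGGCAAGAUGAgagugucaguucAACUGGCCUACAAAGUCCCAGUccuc

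Mir365-1 (ENSMUSG00000065449.1, chr16:13453840-13453926, plus strand): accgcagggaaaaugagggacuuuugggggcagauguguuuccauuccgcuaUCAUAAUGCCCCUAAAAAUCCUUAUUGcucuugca

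Mir365-2 (ENSMUSG00000065489.1, chr11:79726400-79726511, plus strand): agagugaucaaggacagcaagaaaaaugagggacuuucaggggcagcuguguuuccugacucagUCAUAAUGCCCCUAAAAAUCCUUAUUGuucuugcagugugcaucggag

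Every 22-base window of Mir193b (58 windows) and of Mir193a (45 windows) occurred in no other annotated mouse hairpin. Of the windows of Mir365-1, 60 of 66 did so, and of those of Mir365-2, 85 of 91. The 6 windows that the miR-365 hairpins share are those that lie within the 27-base stretch, among them the exact miR-365-3p. A read of that sequence fits both genes equally, and the tables give reads aligned to several places to no gene. The Mir365-1 and Mir365-2 counts below are therefore taken to leave out the shared form of miR-365-3p. This is an assumption, since the settings of the aligner are not given in the sources used here and the tables do not show single reads.

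**Figure D1:**
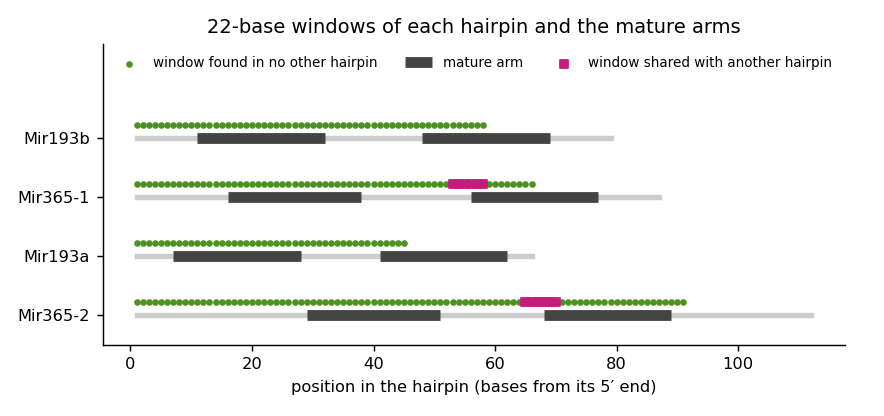
Map of the 4 hairpins, with the position in bases from the 5′ end on the horizontal axis, the mature arms as dark bars, and a mark above the start of each 22-base window. Windows shared with another hairpin occur in Mir365-1 and Mir365-2, 6 in each, around the start of the 3p arm.

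In the genome the clusters have the same order and strand but a different spacing. Mir193b and Mir365-1 lie 4238 bases apart, and Mir193a and Mir365-2 14365 bases apart. GENCODE M21 annotates no transcript over the chromosome 11 hairpins. On chromosome 16 it annotates the antisense gene Gm15738 across both hairpins on the other strand. RefSeq annotates the noncoding transcripts Gm32817, on the strand of the miRNAs, and Gm53058 across both chromosome 16 hairpins. The lower end of each lies 1571 bases before Mir193b, which for Gm32817 is its start. GENCODE M21 differs, since its Gm32817 starts 8619 bases past Mir365-1 and spans neither hairpin. Strand did not alter the counts of any member: each had 0 antisense counts in replicate 2 and in replicate 1, and its unstranded counts equalled those on its own strand.

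The RefSeq start of Gm32817 is shown because both genes it spans in RefSeq were higher in replicate 2, as described below. It was thus picked with the counts known, and whether the hairpins are made from this start was not tested. Its 300 bases (chr16:13447702-13448001, plus strand, 250 before the start to 50 after it) were 76.7% G or C, against a median of 52.7% over the 32851 promoter windows of the RefSeq table. Capitals mark the CG dinucleotides, of which it held 26, against a median of 7. Fewer than that were held by 83.1% of the windows, so the remaining windows held as many or more.

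Gm32817 start: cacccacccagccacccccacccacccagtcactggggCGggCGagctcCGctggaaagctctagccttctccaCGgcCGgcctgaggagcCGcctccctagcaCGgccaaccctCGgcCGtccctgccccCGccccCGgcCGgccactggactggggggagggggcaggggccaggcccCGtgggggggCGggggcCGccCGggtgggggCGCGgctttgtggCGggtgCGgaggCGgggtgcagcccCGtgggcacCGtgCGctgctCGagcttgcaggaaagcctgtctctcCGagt

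On both strands, the core motif AGGTCA of nuclear receptors had no match there and occurs in 16.3% of all windows. Its longer form AAGGTCA, which contains it and is of the type that the steroidogenic factor SF-1 binds, had no match and occurs in 4.72%. TATAAA had none either, and occurs in 13.6%.

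All 4 genes were detected, at 10 or more counts in each library, as were 342 of the 2202 genes. Mir193a had 2040 counts (895 CPM, exact Poisson 95% interval 856 to 934) in replicate 2 and 2239 counts (788 CPM, 756 to 822) in replicate 1. Mir193b had 1636 counts (718 CPM, 683 to 753) in replicate 2 and 1012 counts (356 CPM, 335 to 379) in replicate 1. Of the miR-193 genes, Mir193a was the higher in each library, with the larger difference between libraries in Mir193b.

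Mir365-2 had 87 counts (38.2 CPM, 30.6 to 47.1) in replicate 2 and 100 counts (35.2 CPM, 28.7 to 42.8) in replicate 1. Mir365-1 had 36 counts (15.8 CPM, 11.1 to 21.9) in replicate 2 and 20 counts (7.04 CPM, 4.30 to 10.9) in replicate 1. The assigned reads of the miR-365 genes were far fewer than those of their miR-193 neighbours, and the interval of Mir365-1 is the widest relative to its value. All these intervals cover counting error only.

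**Figure D2:**
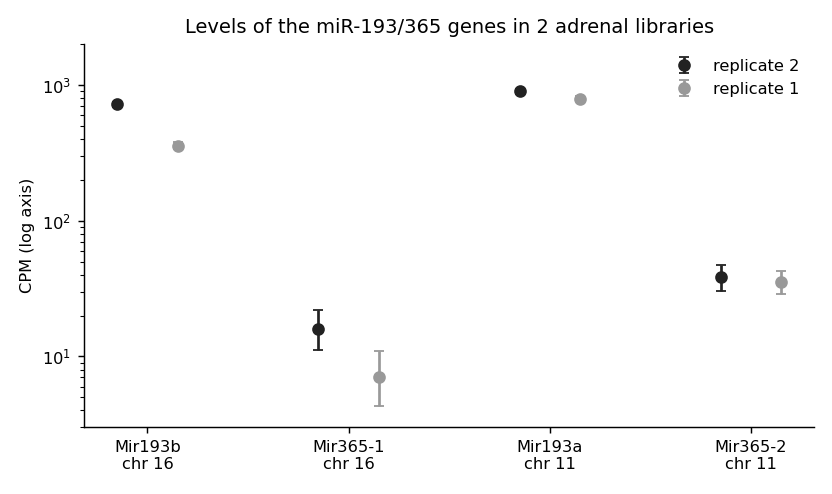
CPM of each gene (log axis) in replicate 2 (black) and replicate 1 (grey), with exact Poisson 95% intervals as bars. The chromosome 16 genes Mir193b (718 CPM in replicate 2, 356 CPM in replicate 1) and Mir365-1 (15.8 CPM in replicate 2, 7.04 CPM in replicate 1) sit higher in replicate 2, and the chromosome 11 genes lie close together.

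Means over the replicates were 842 ± 75.1 CPM for Mir193a, 537 ± 255 CPM for Mir193b, 36.7 ± 2.08 CPM for Mir365-2 and 11.4 ± 6.18 CPM for Mir365-1 (SD, n = 2). This order was the same in each library. The values of Mir193a and Mir193b did not overlap, but their means ± SD did, so these neighbours in the order do not differ beyond their spread. Mir365-2 and Mir365-1 differed by more than their SDs. A mature arm gives a read whatever the length of its hairpin. Divided by hairpin length, the same order held, at 12751 CPM per kilobase for Mir193a, 6797 for Mir193b, 328 for Mir365-2 and 131 for Mir365-1.

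Among all genes by mean CPM, Mir193a ranked 90, Mir193b 110, Mir365-2 238 and Mir365-1 303. Mir193a thus lay above 73.7% of the detected genes and Mir193b above 67.8%, while Mir365-2 lay above 31.3% and Mir365-1 above 12.6%. None of the members differed beyond the SDs from the gene directly above or below it in the order. Genes next to each other in so long an order are close by construction, so this is no trait of the members. The genes next to Mir193a, for example, were Mir672 (849 ± 42.7 CPM) and Mir195a (813 ± 440.1 CPM). Together the 4 members held 0.167% of the gene counts of replicate 2 and 0.119% of those of replicate 1.

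The comparison of the libraries set the chromosome 16 genes apart from the chromosome 11 genes. Both chromosome 16 genes were higher in replicate 2, Mir193b with a ratio of replicate 2 to replicate 1 of 2.01 (exact 95% interval 1.86 to 2.18) and Mir365-1 with a ratio of 2.24 (1.26 to 4.09). The chromosome 11 genes were close to even, Mir193a with a ratio of 1.13 (1.07 to 1.21) and Mir365-2 with a ratio of 1.08 (0.803 to 1.46). Summed by cluster, the chromosome 16 genes came to 733 CPM in replicate 2, against 363 CPM in replicate 1, and the chromosome 11 genes to 933 CPM in replicate 2, against 824 CPM in replicate 1.

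Each gene with a mean count of at least 10 was tested by an exact two-sided binomial test of its counts given the library totals, with Benjamini-Hochberg adjustment over all 369 such genes, and was called where the adjusted p was under 0.05 and the ratio at least 2-fold either way. By this rule 8.67% of the genes tested were called higher in replicate 2 (32 genes) and 10.03% higher in replicate 1 (37 genes). With median-of-ratios scaling the split was 24 to 45. Of the 4 members, Mir193b (adjusted p = 4.96e-70) and Mir365-1 (adjusted p = 0.00824) were called higher in replicate 2 by the exact binomial test, and none was called higher in replicate 1. Mir193a (adjusted p = 8.54e-05) and Mir365-2 (adjusted p = 0.683) were not called by it. The test compares these 2 libraries, not conditions. Its p-values and all intervals of ratios given here cover counting error only and treat each read as a separate molecule. An exact permutation of 2 samples cannot give a p below 0.5, and two-sided it cannot tell the 2 samples apart.

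Mir193b lay just inside the 2-fold limit for genes higher in replicate 2, as the gene nearest to it on that side. In that direction the nearest genes inside after it were Mir6240 (log2 ratio 1.03) and Mir378c (1.06), and the nearest outside were Mir34a (0.94) and Mir7-2 (0.93), against 1.01 for Mir193b. With TMM scaling the ratio of Mir193b was 1.86 and with median-of-ratios scaling 1.80, and it was no longer called. Median-of-ratios scaling brought Mir365-1 to a ratio of 2, on the limit itself, and Mir365-2 to 0.967. These scalings moved the log2 ratio of every gene by -0.12 and -0.16, and the median over all genes tested was 0.07 before them. Relative to that median, the log2 ratios were 0.94 for Mir193b, which is under the 2-fold limit, 1.09 for Mir365-1, 0.11 for Mir193a and 0.04 for Mir365-2.

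Among the 369 genes the median size of the log2 ratio was 0.45. It was smaller than that of Mir193b in 81.0% of genes and smaller than that of Mir365-1 in 85.1%, but smaller than that of Mir193a in 22.2% and of Mir365-2 in 15.4%. Genes of like depth give the closer setting, taken as those with a mean count within a factor of 2. Of 59 such genes, 3 had a ratio at least as high as Mir193b. Of 72 genes at the depth of Mir365-1, 10 had a ratio at least as high as that gene.

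**Figure D3:**
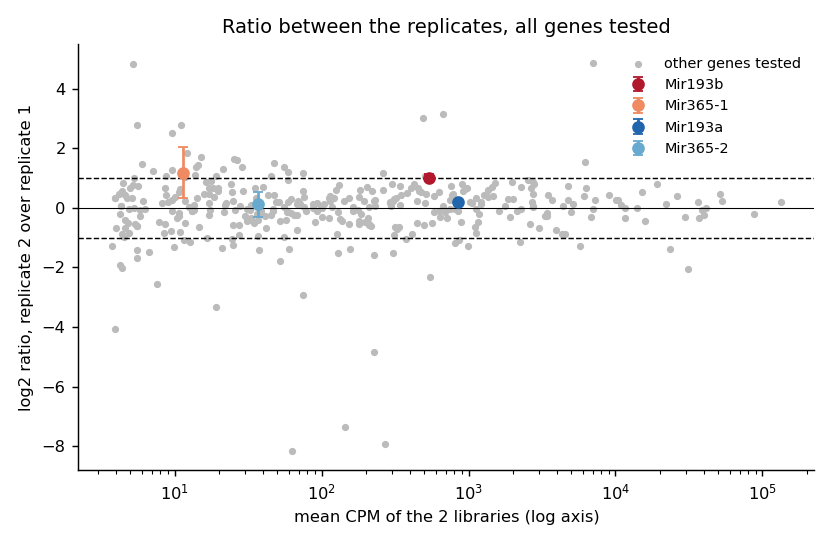
Log2 ratio of replicate 2 over replicate 1 against mean CPM (log axis) for all genes tested, with the 4 members in colour and their exact 95% intervals as bars, and dashed lines at the 2-fold limits. Mir193b (1.01) and Mir365-1 (1.16) lie at or above the upper line, and Mir193a (0.18) and Mir365-2 (0.12) lie near 0.

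Ratios between genes of the same library need no scaling. Mir193b made up 44.5% (Clopper-Pearson 95% interval 42.9 to 46.1) of the assigned miR-193 reads in replicate 2, against 31.1% (29.5 to 32.8) in replicate 1. The ratio of Mir193b to Mir193a was 1.77 times as high in replicate 2 as in replicate 1 (exact 95% interval 1.61 to 1.96). Mir365-1 made up 29.3% (21.4 to 38.1) of the assigned miR-365 reads in replicate 2, against 16.7% (10.5 to 24.6) in replicate 1. Its ratio to Mir365-2 was 2.07 times as high in replicate 2 (1.07 to 4.06), and this interval comes near 1. In both paralog pairs the chromosome 16 gene took a larger share in replicate 2 than in replicate 1, and the chromosome 11 gene held the majority in each library.

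Within a cluster the proportions of the neighbouring genes were alike in the libraries. On chromosome 16 there were 2.20 Mir365-1 counts per 100 Mir193b counts in replicate 2 and 1.98 in replicate 1, a ratio between libraries of 1.11 (0.624 to 2.04). On chromosome 11 there were 4.26 Mir365-2 counts per 100 Mir193a counts in replicate 2 and 4.47 in replicate 1, a ratio of 0.955 (0.703 to 1.29). Both intervals include 1, and that of chromosome 16 is wide. Because the shared form of miR-365-3p is taken not to be counted, these proportions describe assigned reads and not the output of the clusters.

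**Figure D4:**
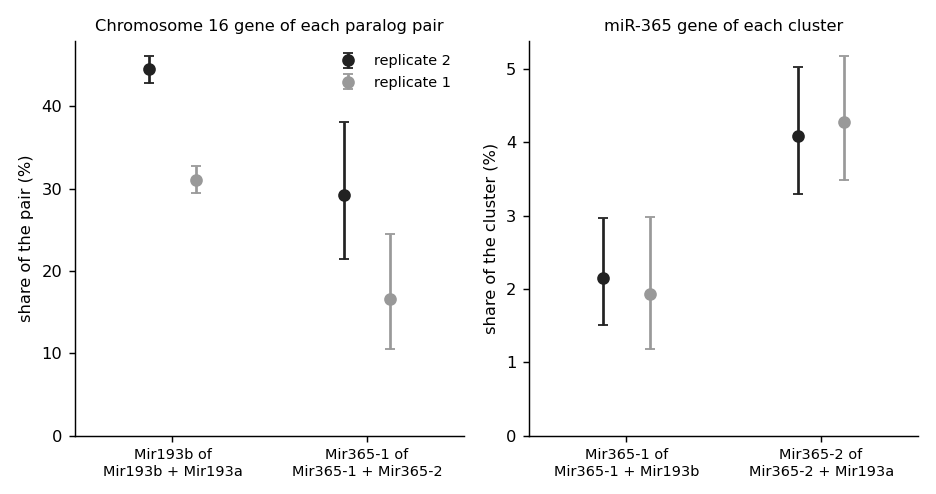
Left, share of assigned reads held by the chromosome 16 gene of each paralog pair; right, share held by the miR-365 gene of each cluster; replicate 2 in black and replicate 1 in grey, with Clopper-Pearson 95% intervals as bars. The share of Mir193b is 44.5% in replicate 2 and 31.1% in replicate 1, while the intervals of the right panel overlap within each cluster.

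The members of each cluster were set beside neighbouring miRNA genes in general. Over 113 neighbouring pairs on 1 strand within 10 kb, Mir193b and Mir365-1 among them, both genes tested and with counts in each library, the log2 ratios of the 2 genes differed by a median of 0.55, with a range of 0.02 to 2.98. The ratios had the same sign in 61 pairs. Mir193b and Mir365-1 differed by 0.16, and 19 pairs differed by less. Mir193a and Mir365-2 lie too far apart to be among these pairs, and their log2 ratios differed by 0.07, with 7 pairs that differed by less. At 20 to 100 counts, the miR-365 genes leave these differences with wide counting intervals, as given above.

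**Figure D5:**
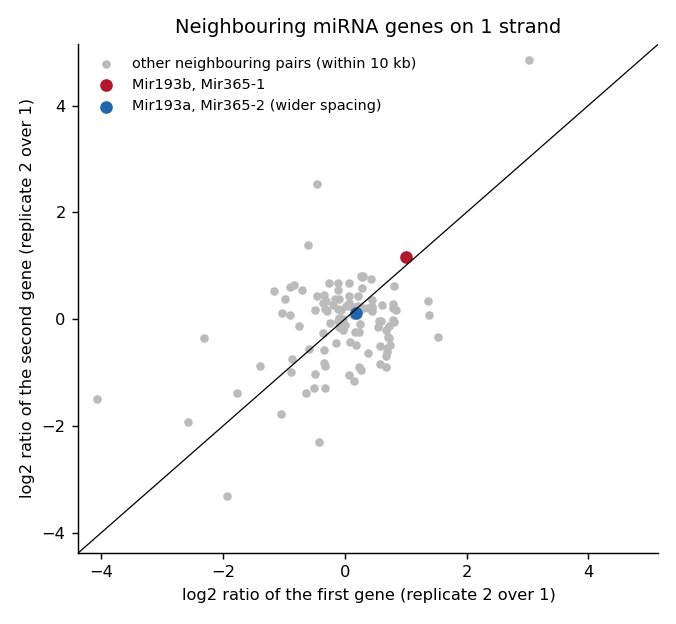
Log2 ratio of replicate 2 over replicate 1 of the gene with the lower coordinate (horizontal) and of its neighbour (vertical) for miRNA genes on 1 strand within 10 kb, with a line of equality. The pair Mir193b and Mir365-1 (1.01 and 1.16) and the wider pair Mir193a and Mir365-2 (0.18 and 0.12) lie close to the line.

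Of the 23 other miRNA genes described in brown fat, 20 were tested. None was called higher in replicate 2 (8.67% of all genes tested were), 3 were called higher in replicate 1 (10.03% of all) and 17 were not called. At 20 genes these shares come to few calls in either direction, so no difference from the other genes is read from the counts. The median log2 ratio of the list was 0.15, beside 0.07 over all genes tested, and 12 of the 20 genes had a log2 ratio above 0. Mir378a, which lies in the coactivator gene Ppargc1b, had 56680 CPM in replicate 2 and 48825 CPM in replicate 1. Mir455, which has been described to promote brown adipocyte formation in mice, had 2899 CPM in replicate 2, against 2525 CPM in replicate 1, and the Hox cluster gene Mir196a-2 had 165 CPM in replicate 2, against 163 CPM in replicate 1. The ratios of these 3 genes lay between 1.01 and 1.16. The list summed to 74792.5 CPM in replicate 2, against 67246 CPM in replicate 1, and most of that sum was Mir378a. The list holds genes described to promote brown adipocyte formation and others described to inhibit it. Its median, its sum and the number of its log2 ratios above 0 therefore do not measure brown fat.

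Of the other abundant genes of that list, Mir27b had 3221 CPM in replicate 2, against 5886 CPM in replicate 1, and Mir93 had 3563 CPM in replicate 2, against 2051 CPM in replicate 1. Neither passed the 2-fold limit. Mir34a, Mir30c-1 and Mir30b also had higher values in replicate 2 without passing it, at ratios of 1.92, 1.73 and 1.52. Mir27a, Mir125b-2, Mir125b-1 and Mir106b had lower values in replicate 2 and did not pass it either, at ratios of 0.644, 0.685, 0.797 and 0.985. Apart from Mir27b and Mir93, these genes are named after their values were seen. The genes called higher in replicate 1 were Mir203, known from epithelia, with 554 CPM in replicate 2, against 1166 CPM in replicate 1, and Mir26a-1 and Mir26a-2. The last 2 share a mature miRNA with each other, so their counts of 6 and 35 in replicate 2 and 24 and 1253 in replicate 1 rest on the reads that differ. Mir133a-1, Mir133a-2 and Mir133b, inhibitors of brown adipocyte formation that are also muscle miRNAs, were at 0 in both libraries. Mir133a-1 and Mir133a-2 also make the same mature miRNA, so a 0 in these genes does not measure it. Other numbered copies in the list, as Mir30c-1 and Mir196a-2, were not checked for shared mature forms. Their counts describe assigned reads only.

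The list of miRNAs described in the adrenal cortex or steroid-producing cells held 14 genes, all tested. Of these, 0 were called higher in replicate 2 (8.67% of all genes tested were), 5 were called higher in replicate 1 (10.03% of all: Mir21a, Mir24-2, Mir125a, Mir132 and Mir483) and 9 were not called. Its median log2 ratio was -0.53. Mir34a, which is also in the brown fat list, had the highest ratio of this list, 1.92, with 3345 CPM in replicate 2 and 1739 CPM in replicate 1. Mir455, Mir125b-1 and Mir125b-2 are also in both lists. Mir21a had 13012 CPM in replicate 2, against 33612 CPM in replicate 1, and Mir10b had 13906 CPM in replicate 2, against 14056 CPM in replicate 1. Mir125a, a relative of the lin-4 miRNA of worms, had 3341 CPM in replicate 2, against 8199 CPM in replicate 1. The hormone-responsive Mir132 had 576 CPM in replicate 2, against 1405 CPM in replicate 1. Mir24-2 had 87.3 CPM in replicate 2, against 227 CPM in replicate 1, and Mir483, which lies in Igf2, had 10.96 CPM in replicate 2, against 22.2 CPM in replicate 1. Mir320 had 7760 CPM in replicate 2, against 4841 CPM in replicate 1, and was not called. Mir24-1 and Mir24-2, like Mir125b-1 and Mir125b-2, are numbered copies. Their counts describe assigned reads and may leave out a shared mature form.

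Markers of other cells were given as whole lists. Of 10 skeletal and heart muscle genes, 3 were tested and all 3 were called higher in replicate 1. Mir206 had 5 counts in replicate 2, against 1517 in replicate 1, Mir499 had 4 counts in replicate 2, against 818 in replicate 1, and Mir208b had 1 count in replicate 2, against 354 in replicate 1. The 3 Mir133 genes were at 0 in both libraries. Mir208a had 0 counts in replicate 2, against 13 in replicate 1. Mir1a-1 and Mir1a-2 had 0 counts in replicate 2, against 1 and 2 in replicate 1. Mir1b went the other way, with 5 counts in replicate 2, against 2 in replicate 1. None of these was tested. Mir1a-1 and Mir1a-2 are numbered copies, so their counts describe assigned reads only. Of the erythroid genes, 3 of 4 were in the tables, of which Mir451a and Mir144 were called higher in replicate 2 and Mir486 was not. The 5 white blood cell genes summed to 2028 CPM in replicate 2 and 2686 CPM in replicate 1, with Mir223 called higher in replicate 1 and Mir146, Mir150, Mir155 and Mir142 not called. The endothelial gene Mir126a had 59463 CPM in replicate 2 and 43203 CPM in replicate 1. The 10 neuroendocrine and medulla genes summed to 40149.5 CPM in replicate 2, against 42775.5 CPM in replicate 1, with 6 at 0 in both libraries and Mir375, Mir7b, Mir7-1 and Mir7-2 not called. The 6 are the Mir9 and Mir124a genes, whose copies within each name make the same mature miRNA, so their 0 does not measure it. The 5 fibroblast and smooth muscle genes summed to 25516 CPM in replicate 2, against 23167 CPM in replicate 1, with Mir199a-1 at 0 in both and Mir143, Mir145a, Mir214 and Mir199a-2 not called. Mir7-1, Mir7-2 and the Mir199a genes are numbered copies as well, so their counts, with the 0 of Mir199a-1, describe assigned reads only. The neuroendocrine marker Mir375 had 37780 CPM in replicate 2 and 39421 CPM in replicate 1. The brown fat and cortex lists share 4 genes, and these whole-gland counts did not place the members in either tissue. Without muscle and erythroid genes in the totals, the ratios of replicate 2 to replicate 1 were 2.04 (Mir193b), 2.27 (Mir365-1), 1.15 (Mir193a) and 1.10 (Mir365-2). That rescales every gene alike. The part of muscle and erythroid RNA in the difference between the chromosome 16 and chromosome 11 genes was not tested.

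The genes most like each member in level were found by the distance between log2(CPM + 1) values over the 2 libraries. Nearest to Mir193b was Mir339, with 685 CPM in replicate 2, against 324 CPM in replicate 1 (distance 0.15), then Mir3102 and Mir181b-2. Nearest to Mir365-1 was Mir6240, with 15.8 CPM in replicate 2, against 7.75 CPM in replicate 1 (distance 0.12), then Mir488 and Mir1945. Mir193a was nearest to Mir182 (distance 0.13), Mir106b and Mir672, and Mir365-2 to Mir495 (distance 0.07), Mir1941 and Mir194-2. With 2 libraries, this likeness says that the levels were close and no more.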

How the data were processed

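The authors deposited raw read counts per miRNA gene, without normalization, for each sample separately. Reads were assigned on mm10 with GENCODE M21, per the text files deposited beside the tables. Neither aligner nor counter is given in the sources used here. Rows that name no gene (unmapped, aligned to several places, outside genes, ambiguous) held 39.7%, 25.3%, 8.60% and 0% of the 8659511 reads of replicate 2, and 29.8%, 28.8%, 10.8% and 8.62e-05% of the 9278190 reads of replicate 1. They were left out of totals and tests. Counting was per hairpin, so arms could not be told apart. Alleles of the hybrid strain were not analysed here. The strand column with the larger total was used and scaled to 1000000 (CPM).

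The exact binomial test (scipy 1.17.1) ran across all genes whose counts averaged at least 10, with Benjamini-Hochberg adjustment. It was tried on counts simulated with counting error alone, which the test assumes, so that simulation does not cover spread between replicates. Between these replicates of a single group, 62.6% of the genes tested had an adjusted p under 0.05 by this test. edgeR 4.0.16 (TMM) and DESeq2 1.42.0 (size factors) gave alternative scalings. No edgeR test was possible, since the single group holds no contrast. Sequences came from the RefSeq tables on GRCm38.p6, and shared windows from the GENCODE M21 hairpins, by exact match. The libraries carry no stated molecular identifiers. The members and gene lists were chosen with earlier results of these data known. The text names the members, the 4 most abundant detected genes and every called gene of each list, and the 3 genes nearest to each member, and other genes after their values were seen. The comparison with genes of like depth, the motifs, and the total without muscle and erythroid genes were also added after the data were seen.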

Additional observations from a re-analysis of the deposited data

How the results depend on the processing

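No paired analysis was possible because the labels give 1 group. Of 78 recomputed values for 19 results, 65 were labelled unchanged, which for a level means a move smaller than its SD. Leaving out 1 of 2 replicates always meets that rule. The unstranded counts of the members equal those on their own strand, so their paralog ratios could not move. Part of the 65 was therefore fixed in advance. With TMM and median-of-ratios scaling Mir193b fell below 2-fold, at 1.86 and 1.80, and with median-of-ratios scaling Mir365-2 turned to 0.967; the scaling itself shifts every gene alike. Scaled to 1000000 aligned reads in place of gene counts, the levels were 234 for Mir193b, 4.98 for Mir365-1, 367 for Mir193a and 16.01 for Mir365-2, since the divisor is larger. With unstranded totals, which are smaller, Mir193a stood at 979 CPM and Mir365-2 at 42.7 CPM. Without replicate 1 or replicate 2 the levels ranged from 356 to 718 CPM (Mir193b), 7.04 to 15.8 CPM (Mir365-1), 788 to 895 CPM (Mir193a) and 35.2 to 38.2 CPM (Mir365-2), and the log2 paralog ratios from -1.15 to -0.32 (Mir193b over Mir193a) and -2.32 to -1.27 (Mir365-1 over Mir365-2). At a mean count of at least 100, where fewer genes are tested and both miR-365 genes drop out, 12 genes were higher in replicate 2 and 21 in replicate 1. With no minimum fold these were 132 and 99. Depth limits the miR-365 genes most, at 20 to 100 counts.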

Other observations

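The neighbourhoods of the clusters share a feature outside the miRNA counts. RefSeq names 4 mouse tRNA genes n-TTcgt, and 2 of them lie within 15 kb of an annotated miRNA gene. These are n-TTcgt5, which ends 12128 bases before Mir193b on chromosome 16, and n-TTcgt3, which ends 7247 bases before Mir193a on chromosome 11. The other 2 are on chromosome 13. This was noticed in the annotation after the counts had been seen, and the tables used here hold no tRNA counts.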
